A study of Mus musculus with 4 samples.

Results

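Collagen chain genes were compared between adult mouse mesoangioblasts (AdmMABs) with and without silencing of PW1, the zinc finger protein encoded by Peg3. Genes were taken by symbol, as every gene whose name has the form Col, a number, a and a number, and by the rule that a probe set must carry exactly 1 gene symbol. This gave 44 genes on 46 probe sets, of 19938 genes on 21789 probe sets of this kind. Of 45 chains listed by class for this comparison, 44 were measured, and Col21a1 had no such probe set. Col6a5 and Col6a6 had 2 probe sets each, and the brighter of them was used. The classes were 11 fibrillar chains, 6 basement membrane chains of type IV, 6 chains of the beaded filament type VI, 3 network-forming chains of types VIII and X, 9 FACIT chains and 9 others.

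AdmMABs are progenitors that lie along the vessels of skeletal muscle, and those used here were a polyclonal population from the tibialis anterior of adult male C57/BL6 mice. The cells grew in DMEM with 20% fetal bovine serum and were still proliferating when RNA was taken. All of them carried a lentiviral vector, which expressed a hairpin directed at the PW1 transcript (shPW1) or a scrambled hairpin with no match in the mouse (shCtrl). Total RNA of 2 samples per group was hybridized to Affymetrix Mouse Gene arrays, 1 array a sample. By the study's methods the samples of a group are separate RNA extractions of the same cell line, so that the p-values measure the spread between these samples, which may be technical. A single hairpin was used, and the vector carried by the control cells of the arrays is not stated, so that effects of the hairpin, of the vector and of PW1 loss cannot be told apart. Peg3 itself had log2 values of 8.67 and 8.70 in shCtrl and of 6.22 and 6.47 in shPW1. It fell by 2.34 on the log2 scale (SE 0.10, limma adjusted p = 0.00428), a 5.06-fold lower level, in the direction the labels give.

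Collagens are trimers of chains wound into a triple helix. Fibrillar collagens form the tensile fibrils of connective tissue, and FACIT collagens (fibril-associated collagens with interrupted triple helices) coat those fibrils. Type IV collagen is the network of basement membranes, type VI forms beaded microfibrils around muscle fibres and type VIII forms hexagonal lattices beneath vascular and corneal endothelium. Some types are built from a single kind of chain, whereas types I, IV, V, VI and IX combine different chains, and chains of 1 type are therefore described together.

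In shPW1 AdmMABs, 3 collagen chain genes rose and 3 fell. Col8a1 rose 2.66-fold, and Col4a1 and Col4a2 rose 1.38-fold and 1.30-fold. Col6a1 fell 1.80-fold, Col6a2 1.75-fold and Col5a3 1.46-fold. The other 38 chains, among them every FACIT chain and the chains of types I and III, did not pass the test. Calls were made at a limma adjusted p under 0.05, with adjustment over all 21789 probe sets. The share of chains called was 6.82% in each direction, against 4.93% of all genes called higher, 4.35% called lower and 9.28% called in either direction. Among the genes at or above the median brightness of the array, 7.91% were called higher and 6.59% lower, and 39 of the 44 chains were in that range. The number of collagen calls was therefore close to the background, and what follows concerns the single chains. Subtraction of each array's median, which moved the split of all genes from 982 higher and 868 lower to 1477 higher and 727 lower, left 3 collagen chains called in each direction. Leaving out any 1 of the 4 arrays leaves 1 group with a single array, which was too few for calls at this threshold. Every call of the table, and not only the 6 collagen calls, therefore needs all 4 arrays.

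Of the 44 chains, 34 had a log2 fold change below zero (77.3%, against 53.0% of all genes), with a median of -0.12 against -0.01. The median depended on single arrays, and was -0.06 with 30 chains below zero without shPW1 replicate 2 and -0.19 with 34 below zero without shPW1 replicate 1. Arrays of the groups did not overlap for 31 chains, 8 of them higher in shPW1 (27% of all genes were) and 23 lower (28.5% of all genes were). With array medians subtracted, 30 chains lay below zero and the median was -0.06, against 0.05 for all genes. These counts are descriptions, since chains of 1 array share its labelling and hybridization. In such bulk RNA, fewer cells of a type and less RNA per cell cannot be told apart.

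**Figure D1:**
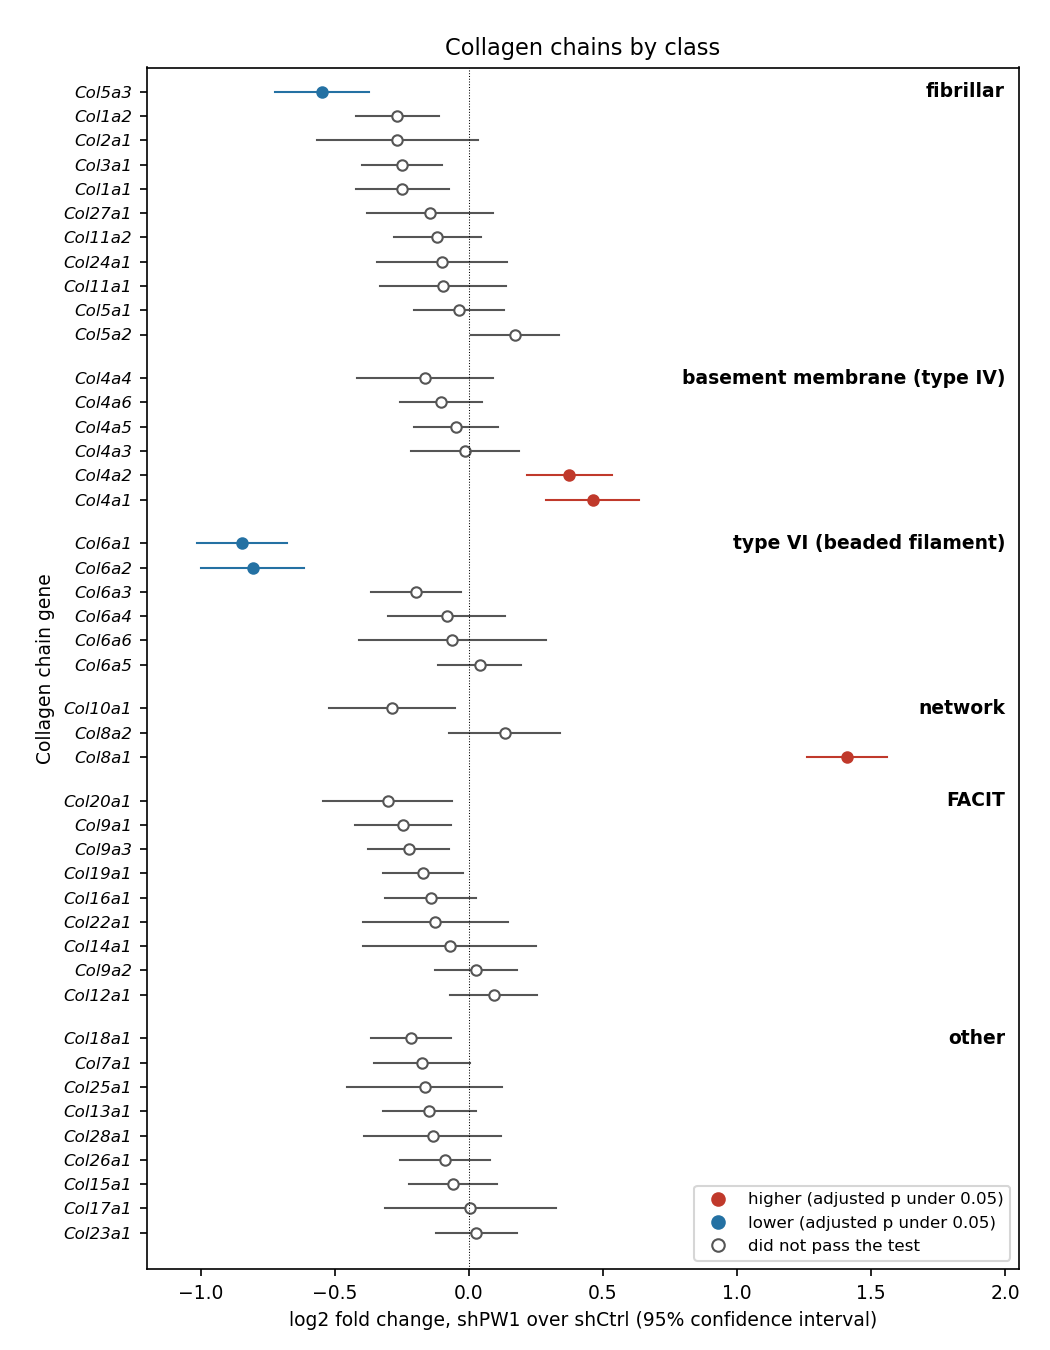
Log2 fold change of each of the 44 collagen chain genes (shPW1 over shCtrl, horizontal axis) with its 95% confidence interval from limma, grouped by class (vertical axis). Filled points passed an adjusted p of 0.05: Col8a1, Col4a1 and Col4a2 to the right of zero, and Col6a1, Col6a2 and Col5a3 to the left, while 34 of the 44 points lie left of zero.

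Among network-forming chains, Col8a1, one of the chains of type VIII collagen, showed the largest change of any collagen. Its log2 values were 8.18 and 8.20 in shCtrl and 9.62 and 9.59 in shPW1. The arrays of the groups lay far apart, and the replicates within each were almost level. The rise was 1.41 (SE 0.06, 95% interval 1.26 to 1.56, limma adjusted p = 0.00383). Col8a2, which encodes the partner chain of type VIII, had values of 5.46 and 5.54 in shCtrl and of 5.71 and 5.56 in shPW1. Its shPW1 arrays were also the higher ones, but by a margin smaller than the gap between them. The log2 fold change was 0.13 (95% interval -0.07 to 0.34, limma adjusted p = 0.352), and it was 0.06 without shPW1 replicate 1 and 0.21 without shPW1 replicate 2. The change of Col8a1 exceeded that of Col8a2 by 1.28 on the log2 scale. Col8a2, however, had a mean of 5.57 over all arrays, just above the cut of 5.44 for dim genes. Differences of dim probes are shrunk by RMA, so that a change of Col8a2 may be understated. Col10a1, the collagen of hypertrophic cartilage, was dim on every array, at 5.08 and 5.17 in shCtrl and 4.93 and 4.74 in shPW1, and its log2 fold change of -0.29 did not pass (limma adjusted p = 0.127).

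The 250 bases before the start of Col8a1, the chain with the largest change, are given here from RefSeq (GRCm38.p6, chr16:57754738-57754987, minus strand), 5′ to 3′. Capitals mark matches to GGGCGG, the core of the GC box, on either strand.

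Col8a1: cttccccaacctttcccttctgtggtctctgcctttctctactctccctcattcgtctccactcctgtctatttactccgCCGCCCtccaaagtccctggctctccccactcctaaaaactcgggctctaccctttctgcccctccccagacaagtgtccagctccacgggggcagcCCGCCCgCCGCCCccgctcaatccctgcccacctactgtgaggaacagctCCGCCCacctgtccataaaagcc

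The stretch held 4 such matches, all of them on the strand opposite to the gene, and had a GC content of 60.8%.

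Type IV collagen is made of 6 chains, of which Col4a1 and Col4a2 build the common trimer of most basement membranes. Both rose. Col4a1 had log2 values of 8.96 and 8.85 in shCtrl and of 9.36 on both shPW1 arrays. Its rise was 0.46 (SE 0.07, limma adjusted p = 0.0278). Col4a2 had values of 9.19 and 9.11 in shCtrl and of 9.52 on both shPW1 arrays. Its rise was 0.38 (SE 0.06, limma adjusted p = 0.0342). For both genes the shCtrl arrays differed more from each other than the shPW1 arrays did, and no shCtrl array reached the lower shPW1 value. Their log2 fold changes differed by 0.09. The other 4 chains, which form the trimers of kidney, lung, eye and smooth muscle basement membranes, did not pass, with log2 fold changes of -0.01 for Col4a3, -0.16 for Col4a4, -0.05 for Col4a5 and -0.10 for Col4a6. With array medians subtracted, the values for Col4a3 and Col4a5 became 0.04 and 0.01.

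Col4a1 and Col4a2 are neighbours on opposite strands of chromosome 8. The minus-strand start of Col4a1 listed in RefSeq (GRCm38.p6) lies to the right of the plus-strand start of Col4a2, so that the listed transcripts overlap at their 5′ ends by 22 bases. This overlap, chr8:11312805-11312826, is within both transcripts and is given on the plus strand with its GGGCGG match in capitals.

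Col4a1 and Col4a2: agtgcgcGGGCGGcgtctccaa

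Of 8 pairs of collagen genes that were next to each other among protein-coding genes, 5 pairs had log2 fold changes of the same sign. With 34 of the 44 chains below zero, a shared sign is common whichever chains are paired, so that this count is not a result about neighbours. In 2 pairs both genes were called, and these were Col4a1 with Col4a2 and Col6a2 with Col6a1. Col3a1 and Col5a2, which also lie side by side, had values of opposite sign.

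Type VI collagen is assembled from an alpha1 chain, an alpha2 chain and, in most cases, an alpha3 chain, and mutations in their genes cause congenital muscle disease. Col6a1 and Col6a2 fell, whereas Col6a3 did not pass the test. Col6a1 had log2 values of 9.85 and 9.84 in shCtrl and of 9.04 and 8.95 in shPW1. It fell by 0.85 (SE 0.06, limma adjusted p = 0.00859). Col6a2 had values of 8.32 and 8.40 in shCtrl and of 7.61 and 7.50 in shPW1. It fell by 0.80 (SE 0.07, limma adjusted p = 0.0122). In both genes the gap between the groups was several times that between replicates. Col6a3 had values of 10.51 and 10.48 in shCtrl and of 10.35 and 10.25 in shPW1, also without overlap. Its log2 fold change was -0.20 (95% interval -0.37 to -0.03, limma adjusted p = 0.136). Col6a3 passed as lower with dim probe sets left out (limma adjusted p = 0.0448) and under a robust prior with trend (limma adjusted p = 0.00442). In those settings 14.6% and 9.32% of the genes tested were called lower. Col6a3 did not pass in the other settings. With array medians subtracted its log2 fold change was -0.14 (limma adjusted p = 0.307), and with all rows tested its limma adjusted p was 0.248. The change of Col6a1 was 0.04 below that of Col6a2 (difference of log2 fold changes -0.04), but the differences from Col6a3 were -0.65 for Col6a1 and -0.61 for Col6a2. The chains that can take the place of alpha3, Col6a4, Col6a5 and Col6a6, had log2 fold changes of -0.08, 0.04 and -0.06. The dimmer probe sets of Col6a5 and Col6a6 gave -0.06 and 0.03, of opposite sign to the brighter ones, and none of these values passed.

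The 250 bases before the starts of Col6a1 (chr10:76726045-76726294) and Col6a2 (chr10:76623631-76623880, the more upstream of 2 listed starts) are set side by side because both genes fell by similar amounts. Both are on the minus strand of chromosome 10 (RefSeq, GRCm38.p6), and capitals again mark GGGCGG on either strand.

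Col6a1: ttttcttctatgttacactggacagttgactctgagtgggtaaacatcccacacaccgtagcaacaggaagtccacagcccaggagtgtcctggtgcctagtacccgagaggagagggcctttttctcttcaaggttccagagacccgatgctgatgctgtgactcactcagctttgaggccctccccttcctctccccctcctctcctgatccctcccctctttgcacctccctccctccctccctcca

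Col6a2: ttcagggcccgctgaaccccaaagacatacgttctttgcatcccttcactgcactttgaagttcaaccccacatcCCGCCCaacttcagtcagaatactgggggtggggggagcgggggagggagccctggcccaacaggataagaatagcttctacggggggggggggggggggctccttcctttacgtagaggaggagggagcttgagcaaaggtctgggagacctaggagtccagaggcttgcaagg

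The Col6a1 stretch held no match and that of Col6a2 held 1, with GC contents of 56.0% and 59.2%.

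**Figure D2:**
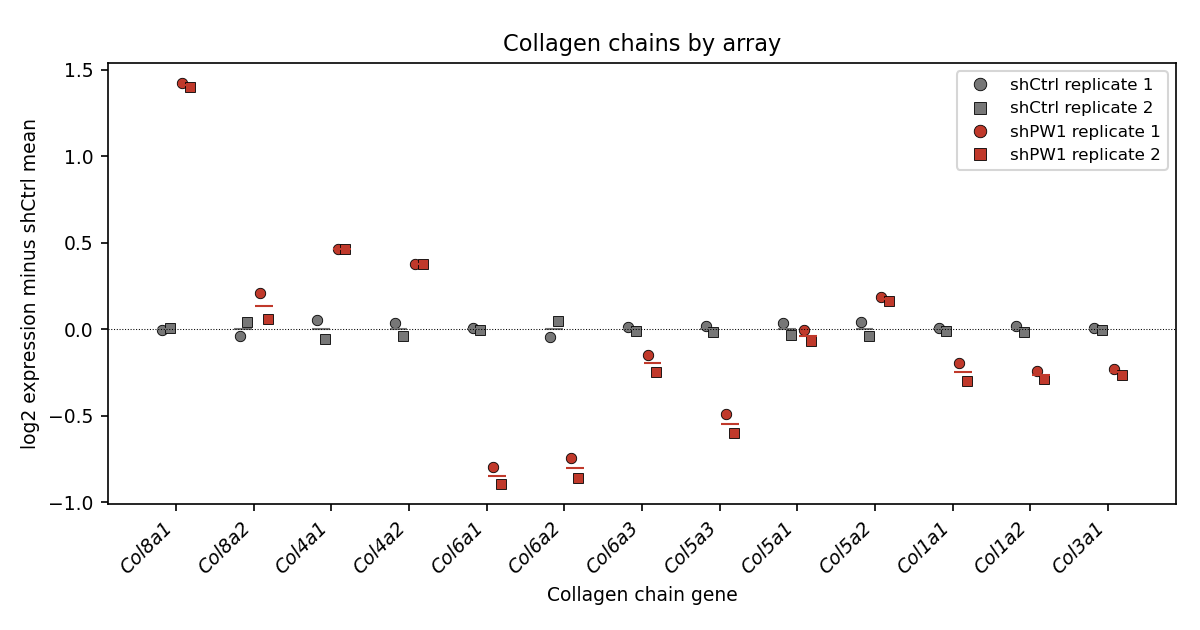
Log2 expression of 13 collagen chain genes on each of the 4 arrays, as the difference from the mean of the 2 shCtrl arrays (vertical axis), with genes grouped by trimer (horizontal axis) and short lines at group means. Col8a1, Col4a1, Col4a2, Col6a1, Col6a2 and Col5a3 passed a limma adjusted p of 0.05, while partner chains such as Col8a2, Col6a3 and Col5a1 lie closer to zero. Arrays of the groups do not overlap for any gene shown except Col5a1, and did not for 55.5% of all genes.

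Of the 11 fibrillar chains, Col5a3 was the only one called. Col5a3 encodes a chain of type V collagen, which is built into type I fibrils and limits their diameter. Its log2 values were 7.79 and 7.76 in shCtrl and 7.28 and 7.17 in shPW1. It fell by 0.55 (SE 0.07, limma adjusted p = 0.021). Neither of the other type V chains passed. Col5a1, present in all type V trimers, had a log2 fold change of -0.04 (95% interval -0.20 to 0.13, limma adjusted p = 0.771), which became 0.02 with array medians subtracted. Col5a2 had values of 10.47 and 10.39 in shCtrl and of 10.61 and 10.59 in shPW1, a log2 fold change of 0.17 (95% interval 0.01 to 0.34, limma adjusted p = 0.165). The change of Col5a3 was below that of Col5a1 by 0.51 (difference -0.51) and below that of Col5a2 by 0.72 (difference -0.72).

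Col1a1 and Col1a2, the chains of type I collagen, and Col3a1, the chain of type III, are the major fibril formers of muscle connective tissue. Col1a1 had log2 values of 12.90 and 12.89 in shCtrl and of 12.70 and 12.59 in shPW1. Col1a2 had 12.93 and 12.90 in shCtrl and 12.67 and 12.62 in shPW1. Col3a1 had 11.47 and 11.46 in shCtrl and 11.23 and 11.20 in shPW1. All 3 genes were lower on both shPW1 arrays than on either shCtrl array, by similar margins. Their log2 fold changes were -0.25, -0.27 and -0.25, and limma adjusted p-values were 0.093, 0.0627 and 0.0676, so that none passed. They passed in the same direction when dim probe sets were left out, with limma adjusted p-values of 0.0264, 0.0141 and 0.0152. In that setting, 17.5% of the 11551 genes tested were called higher and 14.6% lower. All 3 also passed as lower under a robust prior with trend, where 9.32% of genes were called lower. None of the 3 passed with array medians subtracted, with limma adjusted p-values of 0.178, 0.14 and 0.168. The remaining fibrillar chains were Col2a1, Col11a1 and Col11a2 of cartilage and the minor Col24a1 and Col27a1, with log2 fold changes from -0.27 for Col2a1 to -0.10 for Col11a1. Over the class, 10 of 11 chains lay below zero, with a median of -0.14.

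None of the 9 FACIT chains was called by limma, and at an unadjusted p under 0.05 there were 0 higher and 4 lower of 9, where 13.9% of all genes were higher and 13.9% lower. Col12a1, which coats type I fibrils in tendon and muscle, had log2 values of 9.24 and 9.16 in shCtrl and of 9.27 and 9.31 in shPW1, a log2 fold change of 0.09 (limma adjusted p = 0.41). Col16a1 had a log2 fold change of -0.14 (limma adjusted p = 0.245). The chains of type IX collagen, which decorates cartilage fibrils, gave -0.25 for Col9a1, 0.03 for Col9a2 and -0.22 for Col9a3. These chains share a trimer, and the interval of Col9a2, from -0.12 to 0.18, contains zero. The lowest value was that of Col20a1, at -0.30 (limma adjusted p = 0.119), and the others were -0.17 for Col19a1, -0.12 for Col22a1 and -0.07 for Col14a1. The class had 7 of 9 chains below zero and a median of -0.14. With dim probe sets left out, Col9a1, Col9a3, Col19a1 and Col20a1 passed as lower, in a setting where 14.6% of the genes tested were called lower. No FACIT chain was called in any other setting. Mean log2 values over all arrays were 5.54 for Col19a1, 5.65 for Col20a1 and 5.71 for Col9a1, just above the cut of 5.44 for dim genes. Col9a3 had a mean of 7.13. Without detection calls, expression of the first 3 genes is uncertain.

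The 9 chains outside these classes were not called either, and 1 of them, Col18a1, was lower at an unadjusted p under 0.05. Col18a1, the basement membrane collagen from which endostatin is cleaved, had log2 values of 8.23 and 8.24 in shCtrl and of 8.01 and 8.04 in shPW1. The groups did not overlap, but its log2 fold change of -0.21 did not pass (limma adjusted p = 0.0929). Col7a1, the anchoring fibril of skin, had -0.18 (limma adjusted p = 0.186). Col15a1, a multiplexin like Col18a1, had -0.06 (0.000425 with array medians subtracted), and the transmembrane chains gave -0.15 for Col13a1, 0.01 for Col17a1, 0.03 for Col23a1 and -0.17 for Col25a1. Col26a1 and Col28a1 had -0.09 and -0.13.

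The differences between partner chains were tested by exact two-sided permutation of the 4 arrays. With 6 arrangements this test cannot give a p below 0.333. It gave that value for 6 of the 7 pairs tested and 0.667 for Col6a1 against Col6a2, which became 0.389 and 0.667 after Benjamini-Hochberg adjustment. Whether partner chains differed in their response was therefore not detectable with 4 arrays by this test, whatever the size of the difference.

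Promoters were compared for short motifs over windows from 250 bases before to 50 bases after each start listed in RefSeq (GRCm38.p6). Of the 44 collagen genes, 35 had such a window, 38 windows in all. GGGCGG on either strand was found in 23 of them, in 22 genes, which is 60.5% of collagen windows against 35.7% of 32851 windows of all genes. CCAAT was found in 34.2% of collagen windows against 37.4%, and TATAAA in 13.2% against 13.6%. AGTNNCNNNTGGCT, a motif bound by PW1, was in 0 of the 38 windows and in 0.484% of all windows. Of the 6 called chains, Col8a1, Col4a1, Col4a2, Col6a2 and Col5a3 held GGGCGG in a window. The only match of Col4a1 is the one in the printed overlap, which also lies in the window of Col4a2, so that this site is counted for both genes. The motif did not set the called chains apart, since 22 of the 35 collagen genes with a window held it. Chains that were not called are among these, for example Col8a2 and Col5a1. These matches are descriptions of sequence, and a motif that was not found is one whose letters were not in these windows.

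Genes that modify, export, process, cross-link, bind and degrade collagen were counted from lists of 66 genes, of which 61 were measured. Of these, 2 rose and 9 fell (3.28% and 14.8%, against 4.93% and 4.35% of all genes). At or above the median brightness were 48 of the 61, and in that range 7.91% of all genes were called higher and 6.59% lower. The same shares are the background for the counts of the single lists below. The median log2 fold change of the 61 genes was -0.02, against -0.01 for all genes. With array medians subtracted the counts were 4 higher and 5 lower.

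In the list of hydroxylation, glycosylation and folding in the endoplasmic reticulum, 1 of 17 genes rose and 2 fell, with a median of -0.13. P3h2, a prolyl 3-hydroxylase that acts on type IV collagen, rose from log2 values of 6.13 and 6.14 in shCtrl to 6.75 and 6.85 in shPW1. The rise was 0.67 (SE 0.07, limma adjusted p = 0.0136). P4ha1, a catalytic subunit of prolyl 4-hydroxylase, which stabilizes the triple helix, fell by 0.35, from 10.32 on both shCtrl arrays to 9.94 and 10.00 (limma adjusted p = 0.0355). Fkbp14, a prolyl isomerase that binds types III and VI collagen, fell by 0.41, from 7.81 on both shCtrl arrays to 7.40 on both shPW1 arrays (limma adjusted p = 0.0249). Serpinh1, the collagen chaperone HSP47, and Plod2, a lysyl hydroxylase, had log2 fold changes of -0.01 and -0.05, which became 0.04 and 0.0039 with array medians subtracted. In the export list, 1 of 10 genes fell. That gene was Sec13, part of the COPII coat, which fell by 0.32 (limma adjusted p = 0.0396).

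In propeptide processing, 1 of 8 genes rose and 2 fell. Bmp1, the proteinase that removes the C-propeptide of fibrillar collagens, had log2 values of 9.50 and 9.42 in shCtrl and of 8.64 and 8.68 in shPW1. It fell by 0.80 (SE 0.06, limma adjusted p = 0.00908), the largest fall in these lists. Pcolce, which enhances the action of Bmp1, fell by 0.35, from 11.81 on both shCtrl arrays to 11.42 and 11.48 (limma adjusted p = 0.0357). Adamts14, which removes N-propeptides, rose by 0.37, from 7.28 and 7.36 to 7.68 and 7.69 (limma adjusted p = 0.0362). Among the 4 cross-linking enzymes measured, 2 fell and the median was -0.27. Loxl1 fell by 0.51 (limma adjusted p = 0.0194) and Loxl3 by 0.35 (limma adjusted p = 0.0379). Lox itself had values of 11.33 and 11.30 in shCtrl and of 11.07 and 11.19 in shPW1, and its log2 fold change of -0.19 did not pass (limma adjusted p = 0.174).

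Of 11 genes for collagen receptors, 2 fell. At an unadjusted limma p under 0.05 there were 3 higher and 2 lower, where 13.9% of all genes were higher and 13.9% lower. Cspg4, the proteoglycan NG2, which binds types V and VI collagen and marks pericytes, had log2 values of 7.08 and 7.21 in shCtrl and of 6.51 and 6.46 in shPW1. It fell by 0.66 (SE 0.07, limma adjusted p = 0.0174). Mrc2, the receptor that takes up collagen for lysosomal breakdown, fell by 0.41 (limma adjusted p = 0.033). None of the 11 genes of collagen degradation, metalloproteinases and cathepsins among them, was called by limma, with 2 higher and 0 lower at an unadjusted p under 0.05 (13.9% of all genes were higher at that p).

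**Figure D3:**
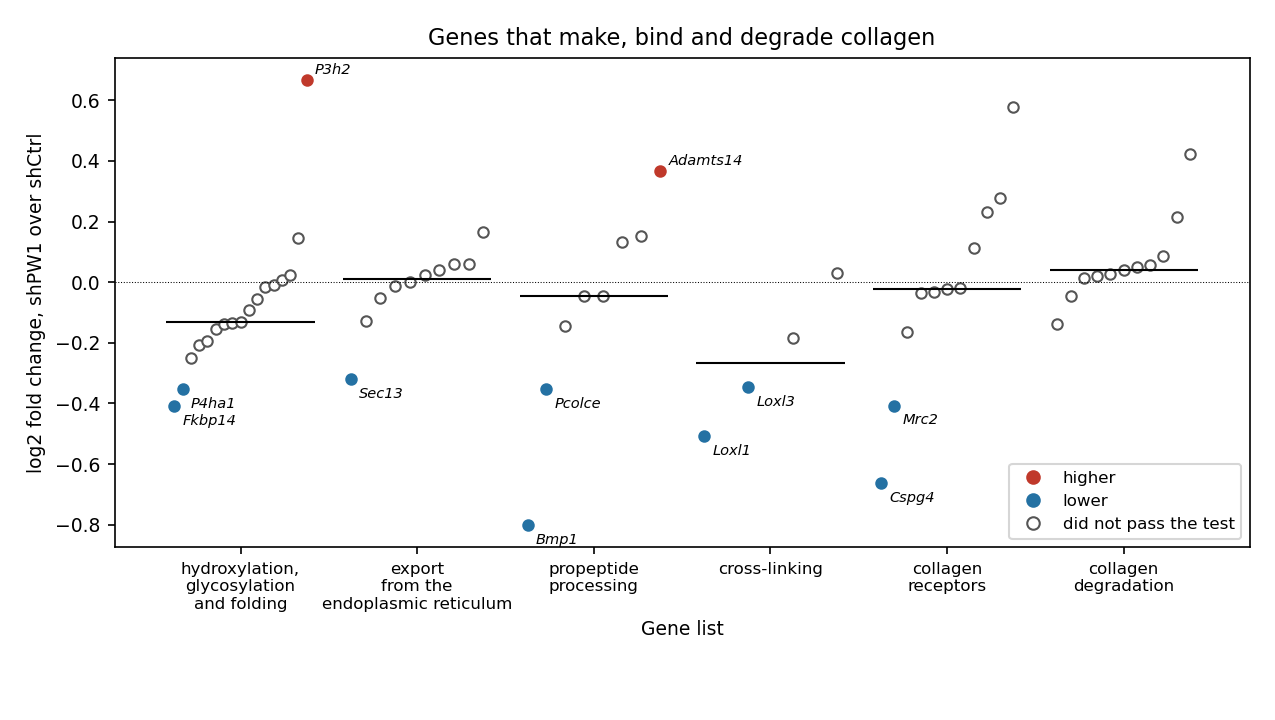
Log2 fold change (shPW1 over shCtrl, vertical axis) of 61 genes in 6 lists of collagen biosynthesis, binding and degradation (horizontal axis), 1 point a gene, with a line at each list's median. Named points passed a limma adjusted p of 0.05: P3h2 and Adamts14 above zero, and 9 genes below, of which Bmp1 at -0.80 is the lowest.

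Marker lists of the cell types that such cultures could hold were read beside these changes. The labelled cell type was checked by 8 pericyte and mesoangioblast markers, of which 7 were at or above the median brightness and Rgs5 was dim. In that list 5 fell, namely Pdgfrb, Cspg4, Mcam, Anpep and Peg3, and the fall of Peg3, the hairpin's target, was set by the design. Of all genes, 4.35% were called lower. The summed level of the list on the linear scale was 11749 to 11893 in shCtrl and 11668 to 12066 in shPW1. Acta2, which was not called (log2 fold change 0.16), held 76.3% to 85.2% of that sum. Without it the sums were 2757 to 2782 in shCtrl and 1758 to 1782 in shPW1, and they still include Peg3. The part of this difference in the collagen changes was not tested. Of 6 myogenic markers, Myod1, Des, Cdh15 and Myog fell, where 4.35% of all genes were called lower. Myf5 and Pax7 were not called, with log2 fold changes of 0.15 and -0.03, and both shPW1 arrays of Myf5 were the higher ones. The summed level was 2930 to 2986 in shCtrl and 1999 to 2014 in shPW1. Des held 47.9% to 49.6% of that sum, and without it the sums were 1513 to 1538 and 1015 to 1042. Fibroblast markers, the list closest to the usual source of types I, III and VI collagen, had 1 of 6 genes lower (Pdgfra), with sums of 722 to 737 and of 685 to 715, or of 393 to 395 and of 319 to 325 without Postn, its brightest gene. Endothelial markers had 6 of 7 genes dim and none called by limma, with 0 at an unadjusted p under 0.05 in either direction, and their sums were 204 to 208 in shCtrl and 186 to 200 in shPW1. Leukocyte markers had 5 of 6 dim and none called, with 0 higher and 1 lower at that p, and sums of 166 to 189 and of 163 to 175. Cartilage and bone markers had 4 of 6 dim and none called, with 0 higher and 1 lower at that p, and their sums were 464 to 472 in shCtrl and 422 to 478 in shPW1. Of 5 adipocyte markers Pparg fell, with sums of 467 to 478 and of 345 to 367. Pparg held 67.3% to 76.5% of that sum, the other 4 genes were not called, and without Pparg the sums were 110 to 116 and 113 to 116. The part of the lower myogenic markers in the collagen changes was not tested.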

How the data were processed

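Total RNA of 4 samples of proliferating AdmMABs (2 shCtrl, 2 shPW1) had been hybridized to Affymetrix Mouse Gene arrays. The authors' scans went through RMA in Partek (6.4 per the submitters' notes), and the deposited table gives log2 values of 35556 probe sets. RMA shrinks differences of dim probes and sets arrays to a shared distribution. The genome build is not given in the sources used here.

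Here, testing was limited to 21789 probe sets that carry a single gene symbol; 12146 unnamed ones and 1621 with more than 1 symbol stayed out. Of those tested, 21698 matched a gene table for current symbols. Groups were compared with limma 3.58.1 (lmFit, eBayes; R 4.3.3; 2 residual and 2.72 prior degrees of freedom), with two-sided p-values, Benjamini-Hochberg adjustment and a threshold of 0.05. A gene was represented by its probe set with the highest mean, and was called dim below a mean of 5.44, the median of all rows. No detection calls were used, and the number of arrays limits the precision. The fit was also run on simulated arrays with known changes. Their noise was independent and drawn at limma's own variance estimates, so that this run cannot test for effects shared within an array.

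Collagen chains and gene lists were chosen with earlier results of these data known. Named genes were all called chains, the 3 brightest of each class, partner chains, up to 4 called genes of each pathway list with the largest change, Serpinh1, Lox, P4ha1 and Plod2. Other chains and the called markers are named to complete the counts, and their values were known by then. Alternatives were testing every row or only brighter probe sets, repeating quantile normalization, subtracting array medians, a robust prior with trend, averaging a gene's probe sets, the methods' analysis of variance, replicate blocks, and leaving out each array.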

Additional observations from a re-analysis of the deposited data

How the results depend on the processing

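With 2 arrays a group, the calls rest on variance shared across probe sets. When any 1 array was left out, limma called 0 collagen chains, 0 pathway genes and 0 probe sets in either direction, also per class, and the methods' analysis of variance after Benjamini-Hochberg adjustment called 0 chains and 0 pathway genes in either direction, 0 in each class, and 1 probe set higher and 1 lower, against 1075 and 908. Without 1 array, 37 of 44 chains kept their sign, for Col8a1 from 1.40 to 1.42, Col6a1 from -0.90 to -0.80 and Col4a2 from 0.34 to 0.41. The sign turned for 7 chains that were not called: Col17a1 (-0.05 without shCtrl replicate 1, -0.15 without shPW1 replicate 1), Col4a3 (0.06 without shCtrl replicate 2, 0.03 without shPW1 replicate 1), Col6a4 (0.01 without shCtrl replicate 2), and, without shPW1 replicate 2, Col11a1 (0.0098), Col24a1 (0.01), Col6a6 (0.12) and Col14a1 (0.10).

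With all rows tested, 1 chain was higher (Col8a1, limma adjusted p = 0.0462) and 0 lower, 0 in the type IV, type VI and fibrillar classes, with 0 pathway genes either way and 31 and 40 probe sets. With dim probe sets left out, 12 chains were lower, 4 of them fibrillar, 4 FACIT and 1 other, with 5 pathway genes higher and 2240 and 1784 probe sets. A trended robust prior gave 8 chains lower, 4 fibrillar and 1 other, 1 fibrillar chain higher (Col5a2), 8 and 15 pathway genes and 2735 and 1978 probe sets. A second quantile normalization and the methods' own thresholds (p of 0.05, fold change of 1.2) each gave 2 fibrillar chains lower, and the latter 4 pathway genes higher. Col4a3 was at 0.04 after that normalization, and Col6a5 at -0.0087 as the mean of its probe sets. Array medians subtracted gave 4 and 5 pathway genes, 1627 probe sets higher, and turned the sign of Col5a1 (0.0213), Col4a3 (0.04), Col4a5 (0.0113), Col15a1 (0.000425), Plod2 (0.0039) and Serpinh1 (0.0433). Causes were not tested.

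The replicate numbers are not said to mark a shared batch, and deviations of same-numbered arrays correlated at r = -0.11. With the replicate block, 1 chain was higher and 2 lower (0 of type IV, 0 fibrillar), with 1 and 2 pathway genes and 256 and 258 probe sets. The crossed pairing, chosen after the data were seen, also gave 1 and 2 chains (0 of type IV, 0 fibrillar), 1 and 2 pathway genes and 213 and 224 probe sets.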
